A study of Mus musculus with 13 samples.

Results

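Dusp1, Dusp2, Dusp4, Dusp5, Dusp6, Dusp7, Dusp10 and Dusp16 encode dual-specificity MAP kinase phosphatases of the mouse. They were taken by name, with earlier results of these data known. They are 8 of the 21887 protein-coding genes in the RefSeq table of GRCm38.p6, which is the mm10 assembly. All called regions of STAT5A, LSD1 and HDAC3 within 50 kb of the bounds of these genes were collected from ChIP-seq lists, and they fell on 72 separate places, counted from regions that overlapped by 1 bp or more. STAT5A regions were at 44 of the 72 places, LSD1 regions at 49 and HDAC3 regions at 11, and 6 places had a region of each protein in at least 1 list.

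MAP kinases are switched on by phosphate groups on a threonine and a tyrosine of their activation loop, and these phosphatases switch them off by removing both. DUSP1, DUSP2, DUSP4 and DUSP5 are nuclear enzymes whose genes are switched on quickly by growth factors, DUSP6 and DUSP7 are cytoplasmic and prefer ERK, and DUSP10 and DUSP16 prefer JNK and p38. IL3 activates both the JAK2-STAT5 pathway and the RAS-ERK pathway in blood cell precursors, and transcription of several of these phosphatase genes is a known negative feedback on ERK.

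The cells were Ba/F3, a mouse pro-B line that needs interleukin 3 (IL3) to survive and that was kept in 1 ng/mL IL3. In the group with IL3, cells were deprived of the cytokine for 6 h and then stimulated with 10 ng/mL IL3 for 30 min. In the group without IL3, cells were deprived for 6 h. Each of 3 antibodies, against the transcription factor STAT5A, the histone demethylase LSD1 and the histone deacetylase HDAC3, was used on 2 biological replicates of each group, which gave 12 lists of regions for single libraries and 6 lists called on the pooled libraries. Both groups had been deprived, so the group without IL3 is starved cells and not cells growing in the cytokine. The lists hold bound regions and no expression values, so neither the pro-B identity of the line nor the RNA level of the phosphatases was measured here.

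The libraries were of unequal yield, and some stood apart. STAT5A lists held 13574 and 6288 regions with IL3 (replicates 1 and 2) and 354 and 4513 without. LSD1 lists held 6479 and 11570 with IL3 and 1007 and 15786 without, and HDAC3 lists held 683 and 265 with IL3 and 1632 and 535 without. Scores, which the authors deposited without a definition in the sources used here, were spaced by a step, taken as the median gap between the lowest 9 distinct scores of a list. The step of LSD1 without IL3 replicate 1 was 15.1, against 1.7 to 5.6 in the other 11 libraries. If 1 step is 1 read, that library was the shallowest, and its weakest called region scored 60.5. HDAC3 with IL3 replicate 2 had 74.2% of its summed score in 1 region. No read totals were at hand, so a gene without a region is one where binding was not called at that library's depth, and not one shown to be unbound.

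With IL3, STAT5A regions lay near all 8 phosphatase genes, and near Dusp5 alone without it, in the pooled lists. The pooled list with IL3 held 35 regions near the 8 genes and the pooled list without IL3 held 1. In single libraries the 8 genes together had 31 and 14 STAT5A regions with IL3, against 0 and 5 without. By gene, 8 and 7 of the 8 had a region with IL3, where 56.2% and 43.8% of all protein-coding genes had one. Without IL3 it was 0 and 4 of the 8, where 3.93% and 38.7% of all genes had one. The 4 were Dusp1, Dusp4, Dusp5 and Dusp16, in replicate 2. All 8 genes had a pooled region with IL3, where 61.4% of all protein-coding genes had one, and 1 of the 8 had a pooled region without IL3, where 40.9% of all genes had one. The 8 windows spanned 102 to 192 kb with a median of 110 kb, and those of all genes had a median of 117 kb.

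A region called in the 2 IL3-stimulated replicates and in none of the deprived ones is termed gained. Gained STAT5A regions lay near Dusp1, Dusp4, Dusp5, Dusp6, Dusp7 and Dusp16, which are 6 of the 8 genes. Over all protein-coding genes the share with a gained STAT5A region was 15.6%. A lost region, with the opposite calls, was near 0 of the 8 genes, with a share of 0.164% over all genes. Of the 40 STAT5A sites near the 8 genes, merged over the 4 libraries, 9 were gained (22.5%) and 30 were in 1 library only (75.0%). Over the whole genome 8.72% of 20764 STAT5A sites were gained and 83.0% were in 1 library. The absence of lost regions rests on STAT5A without IL3 replicate 1, the library with 354 regions: with it left out, 4 of the 8 genes had a region called lost, and so did 29.8% of all genes.

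**Figure D1:**
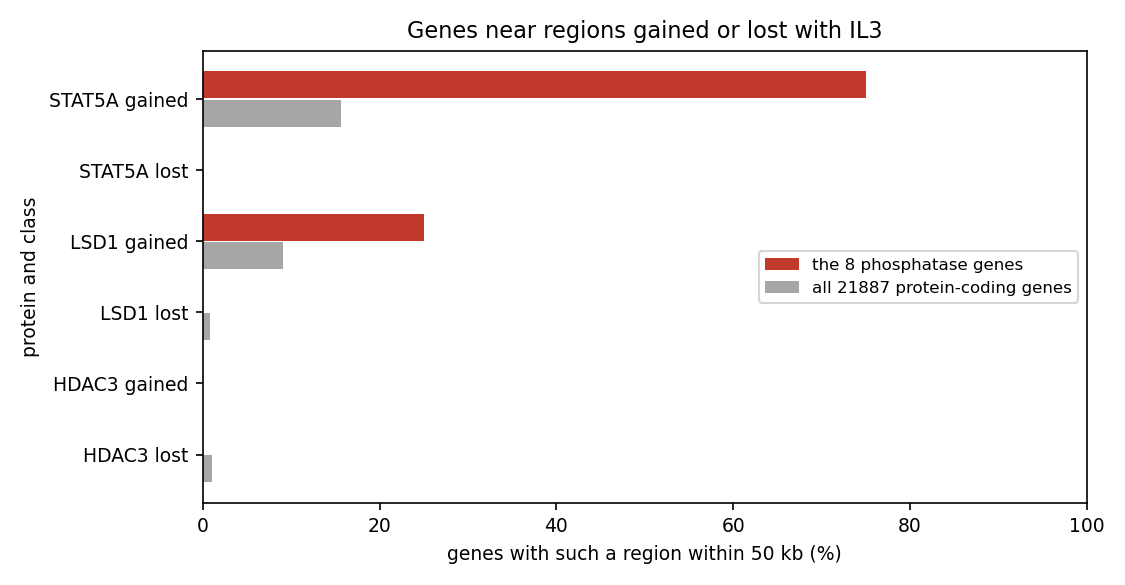
Bars give the percentage of genes with a gained or a lost region within 50 kb, for the 8 phosphatase genes (red) and all 21887 protein-coding genes (grey); gained means called in the 2 IL3-stimulated replicates and in none of the deprived ones, and lost the opposite. The red bar is at 75.0% for gained STAT5A, against 15.6% for all genes, and at 25.0% for gained LSD1, against 9.09%.

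Dusp1 encodes the nuclear phosphatase also called MKP-1, which acts on p38 and JNK as well as ERK and is an immediate early gene. STAT5A had 5 and 2 regions within 50 kb of Dusp1 with IL3, against 0 and 1 without. The groups did not overlap, and the difference of 3.0 regions had an exact permutation p of 0.333 (two-sided), which is the smallest that 2 libraries against 2 allow. Over the 24 comparisons of 8 genes and 3 proteins the smallest Benjamini-Hochberg adjusted p of this permutation test was 1.0. Libraries separated in this way at 5 of the 8 genes (Dusp1, Dusp6, Dusp7, Dusp10 and Dusp16) and, over all protein-coding genes, at 18.0%. The opposite separation was found at 0 of the 8 genes and at 0.0183% of all genes.

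The highest-ranking STAT5A region near any of the 8 genes lay 25.6 kb upstream of the Dusp1 start site, at chr17:26533936-26534124. With IL3 it scored 712.3 in replicate 1, where it was rank 10 of 13574, and 180.1 in replicate 2, where it was rank 71 of 6288. It was called in neither replicate without IL3. In the pooled list with IL3 it was rank 11 of 15546. A second gained region lay 872 bp further from Dusp1 between region centres, at chr17:26534806-26534999, and scored 268.5 (rank 565) and 60.0 (rank 780) in the replicates with IL3.

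Both regions were also gained LSD1 regions. LSD1 scored 24.8 in replicate 1 at each of them, and 45.3 and 37.3 in replicate 2. HDAC3 was called at both in replicate 1 with IL3, with scores of 21.9 (rank 233 of 683) and 24.7 (rank 151), and in none of the other 3 HDAC3 libraries. By gene bounds, Dusp1 was the protein-coding gene nearest to the higher-ranking of these regions, and Ergic1, 25749 bp away against 26318 bp for Dusp1, was nearest to the other.

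The second of the pair covers the annotated start of Gm34606, a long noncoding RNA gene, so its sequence could be read from the RefSeq promoter table. It is shown because it is the STAT5A region of the Dusp1 pair for which letters were at hand. The 250 bases before the Gm34606 start, chr17:26534676-26534925 on the plus strand of GRCm38.p6, have the bases inside the pooled STAT5A region with IL3 in capitals.
Gm34606: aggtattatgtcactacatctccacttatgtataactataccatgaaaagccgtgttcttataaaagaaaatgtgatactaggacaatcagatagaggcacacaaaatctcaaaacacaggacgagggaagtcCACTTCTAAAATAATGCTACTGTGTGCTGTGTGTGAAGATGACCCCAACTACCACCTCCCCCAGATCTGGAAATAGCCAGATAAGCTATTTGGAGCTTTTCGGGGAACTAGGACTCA

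The capitals hold TTCGGGGAA, a match to the STAT word TTCNNNGAA, which reads the same on both strands. It lies at chr17:26534907-26534915, 15 bp from the centre of the pooled region and 19 bp before the Gm34606 start. The word was found in 8.29% of the 32817 windows of the promoter table, each running from 250 bases before to 50 bases after a start. It was in 15.1% of the windows that overlapped a pooled STAT5A region with IL3 and in 7.7% of those that did not. For the pooled list without IL3 the shares were 5.43% and 8.51%. A match is a description of the letters and does not mark a bound site.

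At the Dusp1 start itself LSD1 was called on both sides. Inside the gene, at chr17:26508212-26508408, a gained LSD1 region was found, with scores of 29.7 (rank 1037) and 42.6 (rank 1403) with IL3. Neither library without IL3 had a region that overlapped it, but replicate 2 without IL3 had one beside it, at chr17:26507921-26508103 (36.6, rank 4107 of 15786). Around this place the pooled lists with IL3 also had a STAT5A region (27.8, rank 6017) and an HDAC3 region (19.3, rank 250 of 1208), although neither was called in a single library of its protein. The bases before the start are given because a pooled LSD1 region of each condition reaches them, which in single libraries was called in replicate 1 with IL3 (32.2, rank 858). They are chr17:26508473-26508722, read on the minus strand, with the bases inside the pooled region with IL3 in capitals.
Dusp1: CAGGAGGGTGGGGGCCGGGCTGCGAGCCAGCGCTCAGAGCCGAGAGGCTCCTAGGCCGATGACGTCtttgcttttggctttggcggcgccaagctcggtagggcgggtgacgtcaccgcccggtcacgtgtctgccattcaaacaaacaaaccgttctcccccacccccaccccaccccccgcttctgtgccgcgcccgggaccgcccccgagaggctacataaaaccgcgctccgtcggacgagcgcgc

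The word TGACGTCA, the full cAMP response element, begins 143 bases before the Dusp1 start, outside the capitals. It reads the same on both strands and was in 2.34% of the 17492 promoters of protein-coding genes, and in 1 of the 7 phosphatase promoters in the table. It was chosen after the sequences were seen. TTCNNNGAA was in 0 of the 7 promoters and in 7.83% of the 17492.

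Dusp2, an immediate early gene first found in activated T cells, had the fewest STAT5A calls. STAT5A had 1 and 0 regions within 50 kb with IL3, against 0 and 0 without. The single region scored 26.1 (rank 9278 of 13574) and lay inside the neighbouring gene Astl. LSD1 had 0 and 2 regions with IL3 and 0 and 1 without. In replicate 1 with IL3 an HDAC3 region (19.2, rank 384 of 683) lay over the Dusp2 promoter window, at the same place as an LSD1 region of replicate 2 without IL3 (24.4, rank 9130).

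Dusp4, the nuclear phosphatase MKP-2, had 3 and 1 STAT5A regions with IL3, against 0 and 1 without. The libraries overlapped at 1 region. Its gained region lay 25.4 kb outside the gene bound with the lower coordinate, at chr8:34781956-34782176, and scored 104.4 (rank 2155) and 35.0 (rank 2842) in the replicates with IL3. LSD1 was called there in replicate 2 with IL3 alone (18.7, rank 9243 of 11570). A higher-ranking STAT5A region 42.5 kb outside the same bound was in replicate 1 with IL3 (384.1, rank 225) and in no other single library, and it was rank 353 in the pooled list with IL3. Calls of LSD1 and HDAC3 also met at a place inside the gene. LSD1 was called there in replicate 1 with IL3 (22.3, rank 2293) and in replicate 2 without IL3 (36.6, rank 4107). HDAC3 was called there in replicate 1 with IL3 (19.2, rank 384) and in replicate 1 without IL3 (50.8, rank 301 of 1632), in regions that did not overlap each other.

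Dusp5 encodes a nuclear phosphatase that is specific for ERK, and it was the member with a pooled STAT5A region at its start both with and without IL3. STAT5A had 4 and 2 regions within 50 kb with IL3, against 0 and 2 without, so the groups met at 2. The gained STAT5A region lay 212 bp outside the gene, at chr19:53528753-53528933, with scores of 26.1 (rank 9278) and 40.0 (rank 2042) in the replicates with IL3. It was the gained STAT5A region nearest to a start site among the 7 genes with a start site in the promoter table, and LSD1 and HDAC3 were called at it in no library.

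Just inside the start of Dusp5 lay a STAT5A region in replicate 2 with IL3 (55.0, rank 948 of 6288) and in replicate 2 without IL3 (40.7, rank 212 of 4513). It was the only pooled STAT5A region without IL3 near any of the 8 genes (25.1, rank 440 of 5051), and in replicate 1 it was called in neither condition. LSD1 was called at the same place in all 4 libraries. Its scores were 29.7 (rank 1037) and 53.3 (rank 798) with IL3, and 75.6 (rank 383 of 1007) and 36.6 (rank 4107) without. It was the 1 LSD1 site of 43 near the 8 genes that was in all 4 libraries, where 2.39% of the LSD1 sites of the genome were. A further LSD1 region inside Dusp5, 1349 bp past the start, was the highest-ranking LSD1 region near the 8 genes in every LSD1 list but that of replicate 1 without IL3, where it was not called. It scored 44.6 (rank 350) and 58.6 (rank 612) with IL3, and 82.3 (rank 654) in replicate 2 without IL3.

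The Dusp5 promoter is shown as the 1 phosphatase promoter in the table that overlapped pooled STAT5A regions both with and without IL3. The sequence is chr19:53528895-53529144 on the plus strand, and the capitals are the end of the gained STAT5A region, from the pooled list with IL3.
Dusp5: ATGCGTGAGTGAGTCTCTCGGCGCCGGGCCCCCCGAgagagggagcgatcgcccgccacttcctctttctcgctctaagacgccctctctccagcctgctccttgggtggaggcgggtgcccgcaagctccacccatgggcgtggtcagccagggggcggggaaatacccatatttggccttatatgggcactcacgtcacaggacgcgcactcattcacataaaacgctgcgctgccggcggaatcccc

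Between the gained region and the start lie 2 CArG boxes, the words bound by serum response factor, which begin 82 and 72 bases before the start. They were also chosen after the sequences were seen. A CArG box was in 1.54% of the 17492 promoters, searched on both strands, and in 1 of the 7 phosphatase promoters.

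Dusp6 encodes MKP-3, the cytoplasmic phosphatase that acts on ERK and is itself a target of ERK signalling. STAT5A had 5 and 2 regions with IL3 and 0 and 0 without (exact permutation p 0.333, two-sided). One gained region lay 15.3 kb upstream of the start in replicate 2, at chr10:99247712-99247996, with scores of 78.3 (rank 2970) and 35.0 (rank 2842) in the replicates with IL3. LSD1 was called there in replicate 2 of both conditions, with 32.0 (rank 2943) with IL3 and 30.5 (rank 5997) without. The other gained region lay 17.4 kb past the far end of the gene, at chr10:99284890-99285213, and scored 44.8 (rank 5300) and 30.0 (rank 3985). Here LSD1 was called in replicate 2 with IL3 (18.7) and HDAC3 in replicate 1 with IL3 (16.4, rank 601 of 683). The gained regions of Dusp6 ranked well below those of Dusp1, Dusp7 and Dusp16 in replicate 1 with IL3.

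The Dusp6 region nearest to the start for STAT5A was 4.87 kb upstream and was called in replicate 1 with IL3 alone (138.0, rank 1545). It was the place near the 8 genes where HDAC3 and LSD1 were both called without IL3 and STAT5A with it. LSD1 scored 24.8 and 24.0 there with IL3, in regions that each overlapped the STAT5A region but not each other, and 48.8 in replicate 2 without IL3. HDAC3 was called in replicate 1 without IL3 (33.8, rank 936 of 1632) and in neither library with IL3. At the start site an LSD1 region was in replicate 2 with IL3 (32.0, rank 2943) and in replicate 2 without IL3 (33.5, rank 4929). The pooled LSD1 region with IL3 (20.5, rank 4128) overlapped neither the start nor the region of replicate 2 with IL3, and ended 120 bp before the gene. The bases before the start, chr10:99262981-99263230 on the plus strand, are shown for that pooled region, with its bases in capitals.
Dusp6: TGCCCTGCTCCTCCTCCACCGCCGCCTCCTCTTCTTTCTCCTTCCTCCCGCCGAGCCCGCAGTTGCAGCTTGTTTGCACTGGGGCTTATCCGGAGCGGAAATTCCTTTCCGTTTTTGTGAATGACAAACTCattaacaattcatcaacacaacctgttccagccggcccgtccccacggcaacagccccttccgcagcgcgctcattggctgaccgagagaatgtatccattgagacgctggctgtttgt

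Dusp7 encodes a close relative of DUSP6, also cytoplasmic and selective for ERK. STAT5A had 2 and 2 regions with IL3 and 0 and 0 without (exact permutation p 0.333, two-sided). The gained region at chr9:106353816-106354036 scored 432.6 (rank 157) and 70.0 (rank 539) in the replicates with IL3. It lay 14.7 kb upstream of the Dusp7 start, and Poc1a, the gene of a centriole protein, had the nearer bound. LSD1 was called at it in replicate 2 with IL3 (18.7, rank 9243). A stronger LSD1 region of Dusp7, 7.01 to 7.09 kb outside the gene, scored 29.7 (rank 1037) and 45.3 (rank 1207) with IL3, and 33.5 (rank 4929) in replicate 2 without IL3. No HDAC3 region was called within 50 kb of Dusp7 in any of the 6 HDAC3 lists.

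Of the pair that acts on JNK and p38, Dusp10 had few regions and Dusp16 had the most STAT5A regions of the 8 genes. Dusp10, which encodes MKP-5, had 1 and 1 STAT5A regions with IL3 and 0 and 0 without, but the regions of the replicates were at separate places. One was 18.9 kb past the start, inside the gene (59.7, rank 3970 of 13574) and the other was centred 0.672 kb before the start (35.0, rank 2842 of 6288). LSD1 was called at the second place with 14.9 (rank 5915 of 6479) in replicate 1 with IL3 and with 27.4 (rank 7366) in replicate 2 without IL3.

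Dusp16 encodes MKP-7 and has the longest window, 192 kb. STAT5A had 10 and 4 regions with IL3, against 0 and 1 without, a difference of 6.5 (exact permutation p 0.333, two-sided). The counts with IL3 take in regions inside the neighbouring genes Borcs5 and Crebl2, and others nearest to Crebl2 by gene bounds. A gained region at chr6:134796451-134796650, 3.9 kb upstream of the RefSeq start used here and inside the gene bounds, scored 369.2 (rank 266) and 115.0 (rank 205) in the replicates with IL3. A further gained region 9.84 kb away, at chr6:134806300-134806486, scored 350.5 (rank 306) and 55.0 (rank 948). Of this pair, the region nearer the start was also a gained LSD1 region, with low ranks of 5915 of 6479 (14.9) and 7413 of 11570 (21.3). The other had no LSD1 or HDAC3 region in any list. Whether these regions are intronic or exonic is not known, because the annotation used gives gene bounds without exons. LSD1 was called over the start in replicate 2 with IL3 (18.7), where STAT5A was called too (35.0, rank 2842). The bases before that start, chr6:134792629-134792878 on the minus strand, have the pooled LSD1 region with IL3 in capitals.
Dusp16: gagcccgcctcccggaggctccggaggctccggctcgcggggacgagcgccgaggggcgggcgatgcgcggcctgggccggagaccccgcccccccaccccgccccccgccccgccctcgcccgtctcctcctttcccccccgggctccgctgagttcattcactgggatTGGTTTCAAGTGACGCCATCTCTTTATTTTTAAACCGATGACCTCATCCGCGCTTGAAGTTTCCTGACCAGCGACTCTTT

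**Figure D2:**
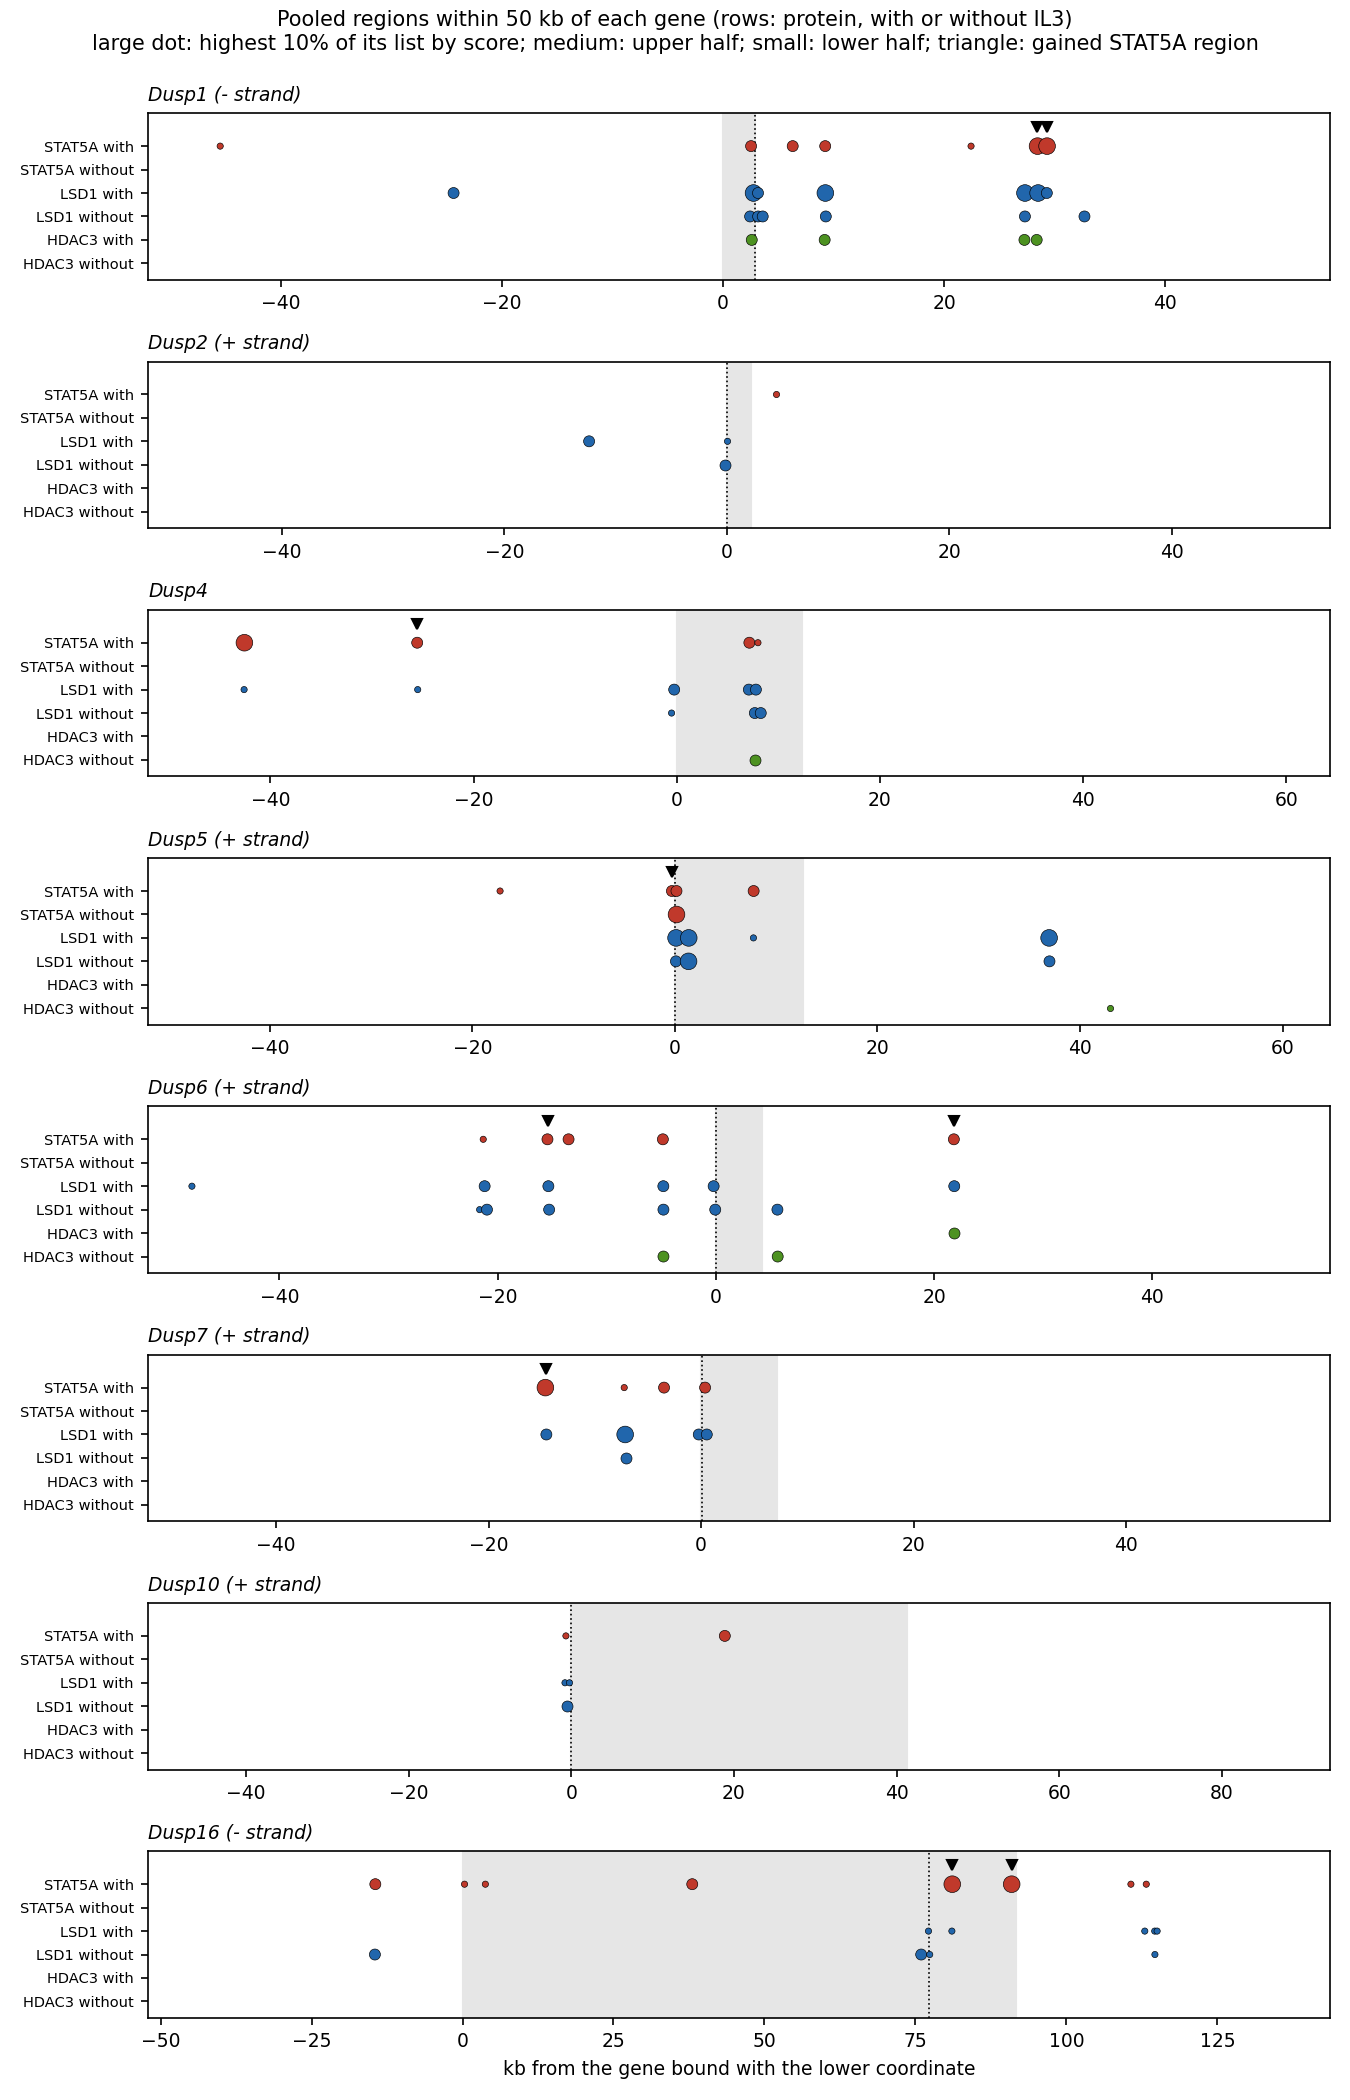
Each panel maps the pooled regions around 1 gene by the distance of the region's centre from the gene bound with the lower coordinate (kb), with rows for the 3 proteins with and without IL3, grey for the gene and a dotted line for the RefSeq start. Large dots are in the highest 10% of their list by score, and triangles mark the 9 gained STAT5A regions, of which those of Dusp1 lie 25.6 kb and 26.4 kb upstream of its start.

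In both replicates with IL3, the gained STAT5A regions near Dusp1, Dusp7 and Dusp16 were the highest-ranking of the 9. In replicate 1 with IL3 the best region of Dusp1, Dusp4, Dusp7 and Dusp16 was within the first 0.0737%, 1.66%, 1.16% and 1.96% of the list. In replicate 2 these genes were at 1.13%, 45.2%, 8.57% and 3.26%, so Dusp4 was high in 1 replicate. Of the 35 pooled STAT5A regions with IL3 near the 8 genes, 6 were in the highest 10% of the list by score, or 17.1%. Their median rank was at 35.5% of the list. Scores were read only as ranks within their own list.

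**Figure D3:**
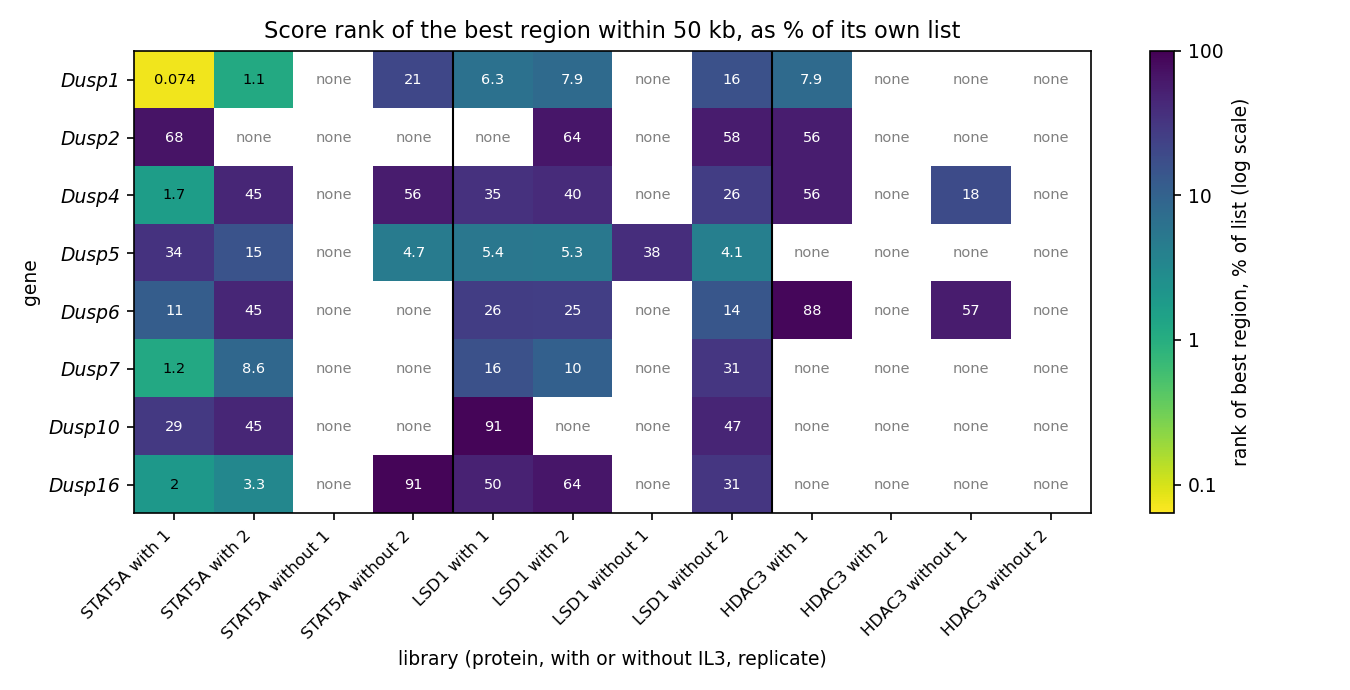
Colours and numbers give the score rank of the best region within 50 kb of each gene, as a percentage of the length of that library's own list (low is high-ranking; log colour scale), with libraries in columns and "none" where no region was called. Dusp1 stands at 0.0737% and 1.13% for STAT5A with IL3, and Dusp5 is the 1 gene with a region in all 4 LSD1 libraries.

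LSD1 was near all 8 genes in both conditions. The pooled list with IL3 held 35 LSD1 regions near them and the list without IL3 held 25, and each list had a region near all 8 genes, where 64.7% of all protein-coding genes had one with IL3 and 63.0% without. In single libraries the 8 genes together had 16 and 27 regions with IL3, against 1 and 23 without, and the low value is that of the library with the largest score step. Gained LSD1 regions lay near Dusp1 and Dusp16, 2 of the 8 genes, where 9.09% of all genes had one, and lost regions near 0, where 0.85% had one. These counts rested on single libraries. Without LSD1 with IL3 replicate 1 or LSD1 without IL3 replicate 2, 6 and 4 of the 8 genes had a gained region, where 40.2% and 27.6% of all genes had one. Without LSD1 without IL3 replicate 1, 6 of the 8 had a lost region, where 49.7% of all genes had one.

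Dusp1 was the 1 gene of the 8 whose LSD1 counts did not overlap between conditions, with 6 and 6 regions with IL3 against 0 and 5 without (exact permutation p 0.333, two-sided). Such a separation upwards was found at 2.25% of all genes, and one downwards at 0 of the 8 and at 0.064% of all genes. Dusp6 had 2 and 6 regions with IL3 against 0 and 5 without, Dusp4 had 1 and 3 against 0 and 3, and Dusp5 had 3 and 3 against 1 and 4. With LSD1 without IL3 replicate 1 left out, the difference with minus without IL3 fell below 0 at Dusp4, Dusp5 and Dusp6, to -1.0 region at each.

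Regions at the start sites were counted next. Of the pooled regions with IL3 near the 7 genes with a RefSeq start in the promoter table, 10 of 30 LSD1 regions and 5 of 31 STAT5A regions were centred within 1 kb of the start, a difference that was not tested. In single libraries with IL3 these were 4 of 15 LSD1 and 1 of 28 STAT5A regions in replicate 1, and 6 of 24 LSD1 and 5 of 13 STAT5A regions in replicate 2, so the order of the shares differed between replicates. The promoter window, from 250 bases before to 50 after the start, overlapped a pooled LSD1 region with IL3 at all 7 genes, where 21.2% of 17492 promoters did. Without IL3 it did so at 5 of the 7, all but Dusp7 and Dusp10, where 19.7% of promoters did. By replicate, the promoters with an LSD1 region were 1 and 4 of the 7 with IL3, against 0 and 3 without, where 7.29% and 16.7% of all promoters had one with IL3, against 0.92% and 17.6% without. Of the 7, no promoter window had an LSD1 region in both libraries of a condition. The LSD1 site just inside the Dusp5 start was in all 4 libraries, but it reached the window in replicate 2 of each condition only. STAT5A overlapped 1 of the 7 promoter windows, that of Dusp5, in the pooled list with IL3 and in the list without, where 10.9% and 9.88% of promoters were overlapped. By replicate, STAT5A overlapped 1 (Dusp5) and 2 (Dusp5 and Dusp16) of the 7 with IL3, against 0 and 1 (Dusp5) without, where 5.38% and 8.02% of promoters were overlapped with IL3, against 0.297% and 9.09% without. HDAC3 overlapped 0 of the 7 in both pooled lists, where 0.669% of promoters were overlapped with IL3 and 2.53% without. By replicate, HDAC3 overlapped 1 (Dusp2) and 0 of the 7 with IL3, against 0 and 0 without. Of all promoters, 0.257% and 0.0229% were overlapped with IL3, against 0.732% and 0.177% without. The 7 promoters had a median G and C content of 67.0% (57.3% to 78.7%), against 64.3% for the 3700 promoters with a pooled LSD1 region with IL3 and 56.3% for all 17492. The part of base composition in the LSD1 calls was not tested.

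HDAC3 was called near the 8 genes in replicate 1 of each condition and in neither replicate 2. With IL3 it was near 4 and 0 of the 8 genes, where 5.41% and 2.25% of all genes had a region. Without IL3 it was near 2 and 0, where 12.1% and 5.65% of all genes had one. In the pooled lists it was near 2 with IL3 and 3 without, where 10.8% and 24.4% of all genes had one. HDAC3 had 6 and 0 regions near the 8 genes with IL3, against 3 and 0 without, and the pooled lists held 5 with IL3 and 4 without. The pooled lists had 4 HDAC3 regions near Dusp1 with IL3 and 0 without, and in single libraries Dusp1 had 3 and 0 regions with IL3 against 0 and 0 without. The highest-ranking of them (32.9, rank 54 of 683) lay at an LSD1 region 24.4 kb upstream of the Dusp1 start, which had LSD1 calls in 3 libraries, all but replicate 1 without IL3, and no STAT5A call. Dusp6 had 1 and 0 HDAC3 regions with IL3 against 2 and 0 without, and Dusp5, Dusp7, Dusp10 and Dusp16 had 0 in all 4 libraries. HDAC3 counts separated upwards or downwards at 0 of the 8 genes, where 0.0548% and 1.62% of all genes did. Gained HDAC3 regions were near 0 of the 8 genes, where 0.00914% of all genes had one, and lost regions near 0, where 1.01% had one. Without replicate 2 with IL3, the library with 1 region holding most of its score, 4 of the 8 genes had a gained HDAC3 region, where 3.47% of all genes had one. Without replicate 2 without IL3, 2 of the 8 had a lost one, where 10.9% of all genes had one.

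**Figure D4:**
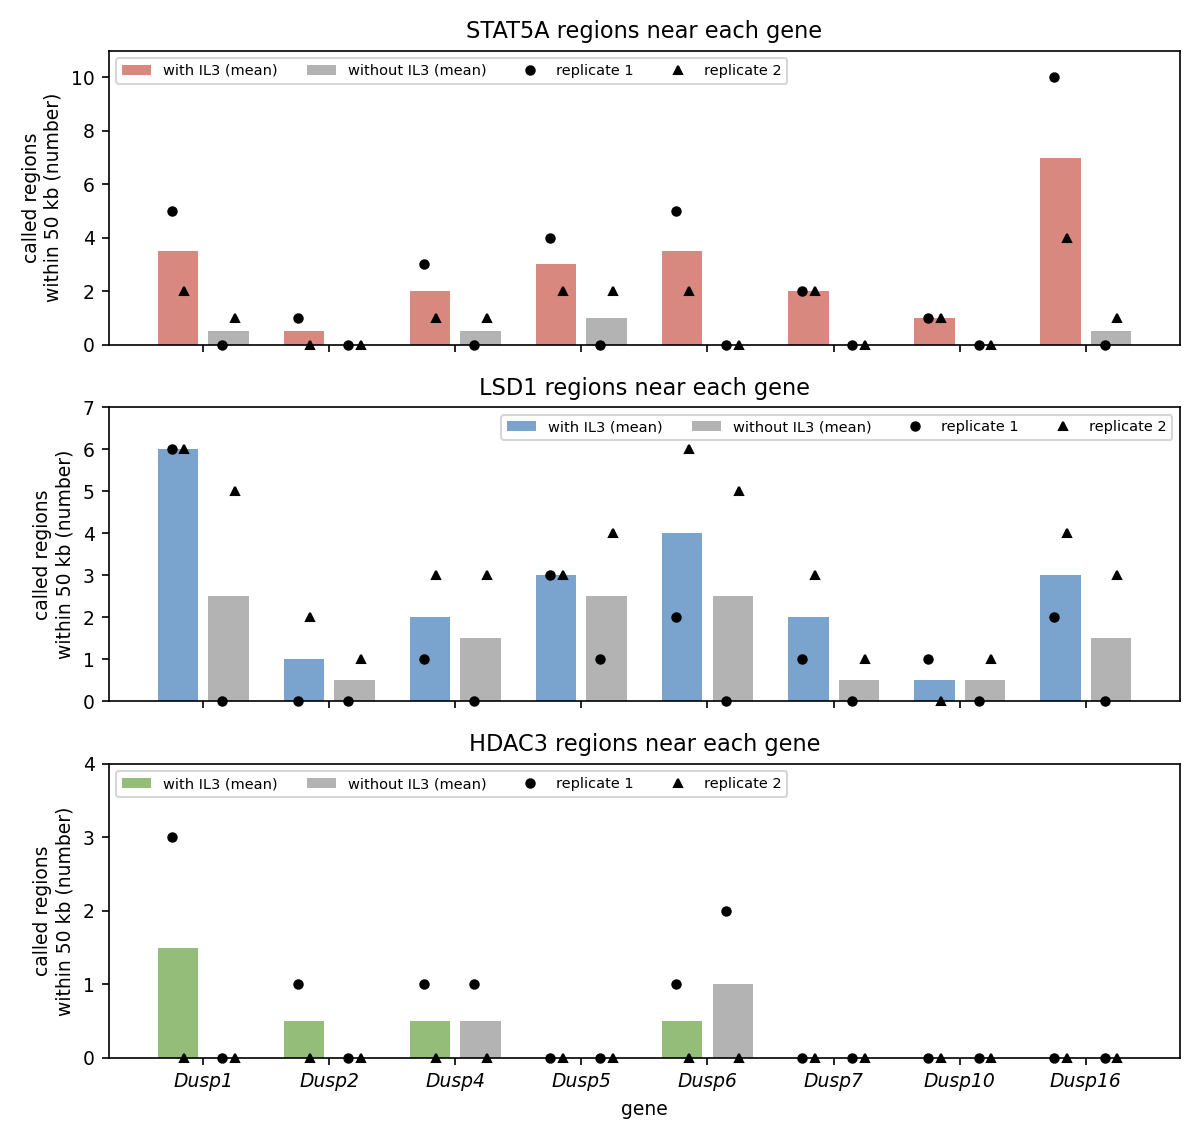
Points give the number of called regions within 50 kb of each gene in each library (circle, replicate 1; triangle, replicate 2), bars their mean with IL3 (coloured, left) and without (grey, right), with 1 panel a protein. STAT5A counts with IL3 stand above both libraries without IL3 at Dusp1, Dusp6, Dusp7, Dusp10 and Dusp16, and LSD1 counts at Dusp1.

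Overlap of the 3 proteins was compared in the pooled lists with IL3. Of the 35 STAT5A regions near the 8 genes, 17 overlapped an LSD1 region, or 48.6% (95% Wilson interval 33.0% to 64.4%, counting error only). The share in the whole STAT5A list was 33.4%. HDAC3 overlapped 4 of the 35, or 11.4% (4.54% to 26.0%), and 4.56% of the whole list. These intervals take the 35 regions as independent, but they lie in 8 gene windows, with 8 near Dusp16 and 7 near Dusp1. The differences from the whole list were not tested. A STAT5A region overlapped by both LSD1 and HDAC3 with IL3 lay near Dusp1 and Dusp6, 2 of the 8 genes, where 5.19% of all genes had one. Without IL3 such a region was near 0 of the 8, where 7.7% of all genes had one. The LSD1 share near the 8 genes was 25.7% without LSD1 with IL3 replicate 2, where that of the whole list was 16.2%, and 78.6% without STAT5A with IL3 replicate 1, where that of the whole list was 51.1%. The HDAC3 share was 0.0% without HDAC3 with IL3 replicate 1, where that of the whole list was 0.212%. None of the 72 places was in all 6 pooled lists, a class of 207 regions over the genome.

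At the 9 places with a gained STAT5A region, pooled LSD1 was called with IL3 at 7 and without IL3 at 1, the upstream place of Dusp6. Over all 1811 gained STAT5A sites of the genome, 57.8% overlapped a pooled LSD1 region with IL3 and 40.2% one without. By replicate, LSD1 was at 3 and 7 of the 9 places with IL3, against 0 and 1 without, where 33.7% and 47.5% of all gained sites overlapped LSD1 with IL3, against 3.92% and 37.3% without. HDAC3 was at 3 and 0 of the 9 with IL3, against 0 and 0 without, where 10.7% and 0.221% of all gained sites overlapped HDAC3 with IL3, against 9.83% and 2.6% without.

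Other genes of MAP kinase signalling were counted in the same way, beside the 15.6% of all genes with a gained STAT5A region. Of the other phosphatases of this type, Dusp8 and Dusp9 had no pooled STAT5A region within 50 kb in either condition. Of all genes 61.4% had one with IL3 and 40.9% without. Among 15 genes listed as atypical dual-specificity phosphatases, 2 had a gained STAT5A region (Dusp12 and Dusp14). Dusp12 also had a lost one, as 0.164% of all genes did. The best pooled STAT5A region near Dusp12 lay inside its neighbour Atf6, and that near Dusp14 inside the gene. Of 19 genes of the ERK cascade 4 had a gained STAT5A region, among them the adaptor gene Shc1, the exchange factor gene Sos1 and the scaffold gene Ksr1. Ksr1 had 5 gained regions within 50 kb, and its best pooled region (rank 258) was inside the gene.

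Of 18 genes of the JNK, p38 and ERK5 cascades 7 had a gained STAT5A region, and the 6 with the best pooled ranks were Mapkapk3, Mapk13, Mapk14, Mapkapk2, Map2k5 and Map2k3. The rank-3 region of Mapkapk3, a kinase downstream of p38, lies inside Cish, a STAT5 target gene, and Mapk13 and Mapk14 share 1 region, so these are not separate counts. Of 16 other feedback inhibitors of RAS and ERK signalling 6 had one, namely Errfi1, Dok1, Spred3, Ptprj, Spry1 and Spry2. Over all protein-coding genes the share with a gained STAT5A region was 15.6%. Gained LSD1 regions were near 0 of 2, 0 of 15, 5 of 19, 5 of 18 and 2 of 16 genes of these lists. Of all genes 9.09% had one. The differences from these shares were not tested. The median gene of the 8 had 4.0 pooled STAT5A regions with IL3 and 0.0 without, the ERK cascade 3.0 and 1.0, the other feedback inhibitors 3.5 and 0.5, and all genes 1.0 and 0.0. Windows of neighbouring genes overlap, so genes are not independent units.

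Genes with the pattern most like 3 of the members were sought over the 12 libraries, by the distance between the score percentiles of the best region within 50 kb. For Dusp1 they were Fkbp9 and Nt5c3, neighbours that share regions, both at a distance of 23.7, against a median of 197 over all genes. For Dusp7 they were Resf1 (8.15) and Cystm1 (10.7), against a median of 160. For Dusp16 they were Mark4 (15.2) and Cacnb2 (18.3), against a median of 145. Likeness here means similar ranks in the same libraries, and these libraries share their unequal depths.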

How the data were processed

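The authors' region lists of 12 single libraries and 6 pooled groups were used as deposited; per the submitters' processing notes reads were handled with Trimmomatic 0.30, Bowtie2 2.1.0, Picard 1.92 and HOMER 4.8 on mm10. How the caller was set, its control and its threshold were not given in the sources used here. The score of each region is a value that the authors deposited; its definition was not at hand, and it served only to rank regions within 1 list. An input library was not used here.

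Start coordinates were converted to count from 1. Regions outside the numbered, X and Y chromosomes were left out of sites, overlaps and counts near genes. The list sizes, ranks and score shares given include them. Sites were formed by merging the 4 single-library lists of a protein at 1 bp of overlap. Gene bounds and promoter sequences come from RefSeq tables of GRCm38.p6, in which 7 of the 8 promoters were matched. Region counts per gene were put to an exact permutation test (two-sided), which cannot give a p under 0.333 and so cannot pass the threshold of 0.05. Group membership came from the sample labels. Each p-value places the difference among the ways to split the 4 libraries of a protein, with 2 biological replicates a group. It does not give the size of the spread between replicates. The members and lists were chosen with earlier results of these data known. Named genes of the other lists are up to 6 per list with a gained STAT5A region, by pooled rank, and 1 item is left unreported. Alternatives were other windows, overlap rules, the upper 50% of each list by score, pooled lists and libraries left out. Counting of classes, windows and overlaps was tested on simulated data. Python 3.11.15 with numpy 2.4.6, pandas 2.3.3, scipy 1.17.1 and matplotlib 3.10.9 was used.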

Additional observations from a re-analysis of the deposited data

How the results depend on the processing

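The count of 6 genes with a gained STAT5A region was 2 with a window of 10 kb (6.67% of all genes). It was 1 inside the gene bounds (3.63%) and 5 to 8 in the other settings. Without STAT5A with IL3 replicate 1 or replicate 2 it was 7 and 8, where 37.2% and 55.2% of all genes had such a region. Without STAT5A without IL3 replicate 1 or replicate 2 it stayed at 6, where 15.7% and 17.6% had one. Dusp6 dropped out when regions had to overlap by 50% of the shorter one (13.5% of all genes). Dusp5 dropped out in the upper 50% of each list by score (12.5%). In the pooled lists the count was 8, where 58.8% of all genes had such a region. Genes with a lost STAT5A region were 0 to 4 when 1 library was left out. Genes with a gained LSD1 region were 2, but 1 in the upper 50% of each list by score (5.15% of all genes), 8 in the pooled lists (52.1%) and 2 to 6 with 1 library left out, and those with a lost LSD1 region were 0, but 6 in the pooled lists (48.2%) and 0 to 6 with 1 library left out. For HDAC3 the pooled lists gave 2 genes with a gained (7.55% of all genes) and 3 with a lost region (22.5%), and 1 library left out gave 0 to 4 and 0 to 2. With 1 library left out, STAT5A regions overlapped LSD1 in 25.7% to 78.6% of cases and HDAC3 in 0.0% to 14.3%.

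Of 144 alternatives of differences in regions per gene that were not 0, 121 kept the sign, 13 fell to 0 and 10 changed sign, and of 48 alternatives of differences of 0, 37 stayed at 0. In the upper 50% of each list the LSD1 difference with minus without IL3 turned to -0.5 at Dusp4, Dusp6 and Dusp16. With 1 library left out it ran from -0.5 to 1.5 regions at Dusp2, from -1.0 to 2.0 at Dusp4 and Dusp5, from -1.0 to 4.0 at Dusp6 and from 0.0 to 3.0 at Dusp16, and for HDAC3 at Dusp6 from -1.5 to 0.5. The sign turned without LSD1 without IL3 replicate 1, LSD1 with IL3 replicate 2 or HDAC3 without IL3 replicate 1. With the replicate number as a block the smallest p the design allows was 0.5, against 0.333 without it, so neither can reach 0.05 and the block says nothing about stability. The numbers are not stated to pair the samples. The cause of these changes was not tested. Regions weaker than each library's lowest called score, and differences in occupancy within called regions, were not detectable.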
